A study of Mus musculus with 18 samples.

Results

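The opioid system of the mouse dorsal spinal cord was followed through its 3 peptide precursor genes, Pdyn, Penk and Pnoc, and its 4 receptor genes, Oprm1, Oprd1, Oprk1 and Oprl1. Members were taken by gene name, which gave 7 of the 18667 gene names in the tables and 10 of 34579 loci. Pnoc, Oprm1 and Oprd1 each had a second locus of lower level, and the locus with the highest mean over the groups was used. The rule itself used gene names and levels, not changes. In GRCm38 the loci were chr2:129686542-129700009 for Pdyn, chr4:4132955-4138962 for Penk, chr14:65401177-65425815 for Pnoc, chr10:6758683-6860106 for Oprm1, chr4:132105042-132144494 for Oprd1, chr1:5588466-5606150 for Oprk1 and chr2:181714952-181721375 for Oprl1.

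RNAseq was performed on dorsal spinal tissue of segments L3–5 from C57BL/6 mice (C57BL/6N in the study's methods) aged 3 months. All mice carried a recombinant adeno-associated virus (rAAV), delivered into the spinal cord, and received 1 hindpaw injection 24 h before tissue collection. The virus encoded β-galactosidase (LacZ, used as control), the wild-type form of HDAC4 (HDAC4 wt) or HDAC4 3SA, a histone deacetylase 4 with mutated phosphorylation sites that stays in the nucleus. The paw received saline or Complete Freund's adjuvant (CFA), which causes a lasting inflammation, so that the 6 groups were LacZ, HDAC4 wt and HDAC4 3SA mice with saline or CFA, 3 mice each. Only 1 paw was injected, and the tissue was not sorted for cells that carried the transgene. LacZ-expressing mice carried virus too, and no group without virus was analysed here.

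The 3 precursors are cut into short peptides: Pdyn yields the dynorphins and neoendorphins, Penk the enkephalins, and Pnoc nociceptin. Dynorphins act mainly on the kappa receptor (Oprk1), enkephalins on the delta and mu receptors (Oprd1 and Oprm1), and nociceptin on its own receptor (Oprl1). All 4 receptors couple to inhibitory G proteins and dampen transmitter release and firing in the dorsal horn, where prodynorphin is a textbook responder to hindpaw inflammation.

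The precursors share a repeated core, in which tyrosine (phenylalanine in nociceptin) is followed by glycine, glycine and phenylalanine. A search of the coding sequence (GENCODE transcripts, GRCm38) for this core directly after a pair of basic residues, where the precursor is cut, found 3 copies in Pdyn, 7 in Penk and 1 in Pnoc. The sequences below are the coding strand at 1 or 2 copies per gene, shown so that the families' difference can be seen: the capitals mark the 4 codons of the core, and the next codon is leucine in every Pdyn copy, and methionine in 6 and leucine in 1 of the Penk copies. The 2 Pdyn copies shown lie in exon 4 at chr2:129688115-129688144 and chr2:129688058-129688087, the 2 Penk copies shown in exon 2 at chr4:4134211-4134240 and chr4:4133926-4133955, and the Pnoc copy in exon 3 at chr14:65404863-65404892, all on the minus strand.
Pdyn core 2: TATGGGGGCTTCctgcggcgcattcgcccc
Pdyn core 3: TATGGTGGTTTCctgcggcgtcagttcaag
Penk core 3: TATGGCGGCTTCatgaagaaggatgcagat
Penk core 6: TATGGGGGCTTCctgaagcgctttgctgag
Pnoc core 1: TTTGGGGGCTTCaccggggcccggaaatca

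The tables hold 1 value per group, computed by the authors over the 3 mice of that group, as FPKM, which is fragments scaled to exon length and to the number mapped. No value per mouse was on hand, and the authors' own test columns were not used, so the differences are given here with no spread between mice, error or test. The tables do not hold the depth reached per sample, for which the study's methods give only a minimum. The word "higher" or "lower" therefore describes 2 group values and not a tested change. A log2 ratio of CFA over saline beyond 0.5, the fold the study used, served as a mark of size. Because the LacZ, HDAC4 wt and HDAC4 3SA tables were normalized separately, ratios and correlations between levels in different tables are descriptions only. The median ratio over loci of at least 5 FPKM differed from equality by at most 0.02 on the log2 scale. Expression of mouse Hdac4 itself was 7.41 (saline) and 7.72 FPKM (CFA) in LacZ, 10.1 and 10.8 FPKM under HDAC4 wt, and 8.86 and 8.81 FPKM under HDAC4 3SA. How much of this came from the transgene cannot be read from the tables.

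Pdyn was the member with the largest difference after CFA in control mice. Its LacZ values were 17.4 FPKM (saline) and 34.3 FPKM (CFA), which is a 1.97-fold higher level (log2 0.98). In HDAC4 wt mice Pdyn stood at 29.3 FPKM (saline) and 35.6 FPKM (CFA; 1.21-fold, log2 0.28). In HDAC4 3SA mice it stood at 21.0 FPKM (saline) and 18.7 FPKM (CFA; 0.891-fold, log2 -0.17). The LacZ and HDAC4 wt CFA groups thus had the high values, and the HDAC4 3SA CFA group lay close to the saline groups of LacZ and HDAC4 3SA mice. The Pdyn log2 ratio was also read relative to dorsal horn neuron markers (the median of Lbx1, Pax2 and Gbx1, which was Gbx1 in each vector). It was then 0.82 in LacZ, 0.59 in HDAC4 wt, past the mark, and 0.28 in HDAC4 3SA mice, where the sign turned. HDAC4 wt mice already had a high saline level, 1.68 times that of LacZ mice, and after CFA the HDAC4 wt to LacZ ratio was 1.04. Of all loci, 30.7% (saline) and 25.8% (CFA) differed between these tables by more than 0.5 on the log2 scale. After CFA, the HDAC4 3SA level was 0.545 times that of LacZ and 0.524 times that of HDAC4 wt mice, where 33.2% and 19.2% of loci differed by more than 0.5.

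Penk was by far the most abundant opioid transcript, with only 451 gene names at a higher mean level. Its LacZ values were 144 FPKM with saline and 179 FPKM with CFA (log2 0.31). In HDAC4 wt mice it measured 154 and 139 FPKM (log2 -0.15), and in HDAC4 3SA mice 132 and 111 FPKM (log2 -0.26). The CFA value of Penk was the higher one under LacZ and the lower one under both HDAC4 forms, which turned to 0.16 and 0.18 relative to dorsal horn neuron markers. Pnoc, which Penk exceeded 9.72 to 13.4 times, had the same order of signs. It was 11.03 and 13.4 FPKM after saline and CFA in LacZ mice (log2 0.28), 14.2 and 12.7 FPKM in HDAC4 wt mice (log2 -0.16), and 13.1 and 11.4 FPKM in HDAC4 3SA mice (log2 -0.21). Relative to the same markers Pnoc was at 0.15 (HDAC4 wt) and 0.24 (HDAC4 3SA). Neither Penk nor Pnoc passed the 0.5 mark in any vector.

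**Figure D1:**
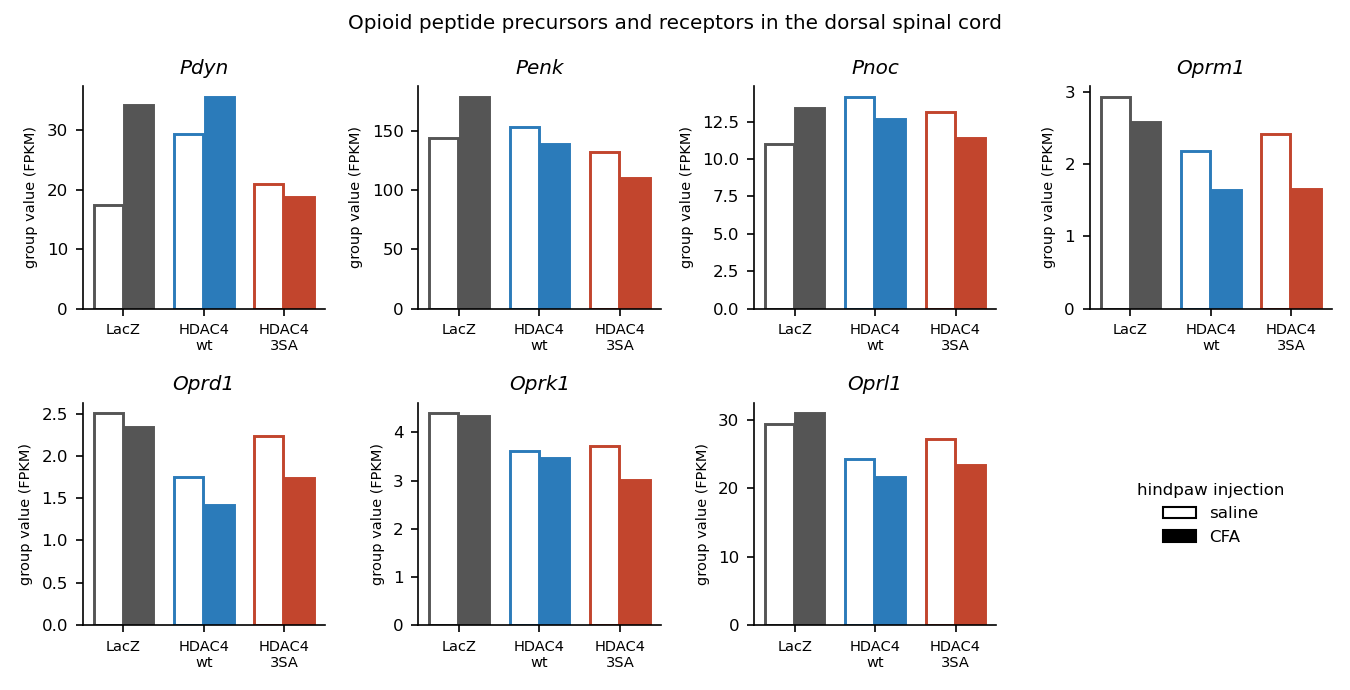
Group value in FPKM (vertical axis, from 0, own scale per gene) of each opioid gene for LacZ, HDAC4 wt and HDAC4 3SA mice, with open bars for saline and filled bars for CFA. Each bar is 1 value over 3 mice with no error available. The Pdyn pair is 17.4 and 34.3 FPKM under LacZ, and 21.0 and 18.7 FPKM under HDAC4 3SA.

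Among the receptors, Oprl1 was the most abundant, at 29.5 and 31.0 FPKM after saline and CFA in LacZ mice (log2 0.07). It was 24.4 and 21.7 FPKM in HDAC4 wt mice (log2 -0.17) and 27.2 and 23.4 FPKM in HDAC4 3SA mice (log2 -0.21). Its 2 LacZ values were the highest of the 6. The kappa receptor Oprk1 was at 4.40 and 4.33 FPKM in LacZ mice (log2 -0.02), 3.62 and 3.47 FPKM in HDAC4 wt mice (log2 -0.06), and 3.71 and 3.00 FPKM in HDAC4 3SA mice (log2 -0.31). In LacZ and HDAC4 wt mice, where Pdyn was higher after CFA, the receptor for dynorphins was thus at nearly equal values. Relative to dorsal horn neuron markers the signs in HDAC4 wt and HDAC4 3SA mice turned, to 0.15 and 0.23 for Oprl1 and to 0.25 and 0.14 for Oprk1.

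The mu receptor Oprm1, the main target of morphine, was at 2.93 and 2.58 FPKM after saline and CFA in LacZ mice (log2 -0.18) and at 2.18 and 1.64 FPKM in HDAC4 wt mice (log2 -0.42). In HDAC4 3SA mice it was at 2.41 and 1.66 FPKM (log2 -0.54, 0.686-fold), the only receptor value past the mark. That call was lost relative to dorsal horn neuron markers (log2 -0.10), with 1 FPKM added to both groups (log2 -0.36) and with its 2 loci summed (log2 -0.43). The delta receptor Oprd1 was at 2.51 and 2.34 FPKM in LacZ mice (log2 -0.10), 1.75 and 1.42 FPKM in HDAC4 wt mice (log2 -0.30), and 2.23 and 1.74 FPKM in HDAC4 3SA mice (log2 -0.36). With the 2 loci of each gene summed, the HDAC4 wt values were 0.012 for Oprd1 and -0.096 for Oprm1, and Oprd1 was at -0.34 in HDAC4 3SA mice. Relative to dorsal horn neuron markers Oprd1 was at 0.011 (HDAC4 wt) and 0.086 (HDAC4 3SA). Both low-level receptors had their lowest values after CFA in the 2 HDAC4 vectors.

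FPKM is scaled to transcript length, so levels can be ordered between genes. Penk led in all 6 groups and was 3.90 to 8.29 times Pdyn. Oprl1 and Pdyn came next and swapped places: Oprl1 was higher in LacZ saline and in both HDAC4 3SA groups, and Pdyn was higher in LacZ CFA and in both HDAC4 wt groups. Pnoc, Oprk1, Oprm1 and Oprd1 followed in that order, except that Oprd1 was above Oprm1 after CFA in HDAC4 3SA mice (Oprm1 to Oprd1 ratio 0.951). The Pdyn to Oprk1 ratio, a peptide precursor against its receptor, was 3.96 after saline and 7.91 after CFA in LacZ mice, 8.10 and 10.3 in HDAC4 wt mice, and 5.65 and 6.22 in HDAC4 3SA mice. Without a spread between mice, neighbours as close as Pdyn and Oprl1 or Oprm1 and Oprd1 cannot be ordered with confidence.

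Taking the 7 members as a list, 4 were higher and 3 lower after CFA in LacZ mice, with a median log2 ratio of 0.07 against 0.00087 over all loci, of which 50.2% were higher at any size. The 1 member past the mark was Pdyn, and the share of all tested loci past it was 5.78% upward and 10.7% in either direction. The members' count is thus near the background. For the size of the Pdyn difference, 1.69% of the tested loci, and 68 of 10662 loci with a mean of at least 5 FPKM, had a higher log2 ratio in that table. Pdyn was the largest of 7 members, so this share per locus does not give how often such a rank arises by chance, which was not tested. In HDAC4 wt mice 1 member was higher and 6 were lower (median log2 -0.16 against 0.011), at a background of 47.6% of loci lower at any size, and 0 were past the mark, against 19.4% of all loci. In HDAC4 3SA mice all 7 were lower (median log2 -0.26 against 0.0097), at a background of 48.2% of loci lower at any size. Relative to dorsal horn neuron markers, the members' medians were instead 0.15 (HDAC4 wt) and 0.18 (HDAC4 3SA), with Oprm1 as the 1 member below 0 in each. One member, Oprm1, was past the mark in HDAC4 3SA mice as tabulated, against 6.64% of loci downward and 18.7% in either direction.

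**Figure D2:**
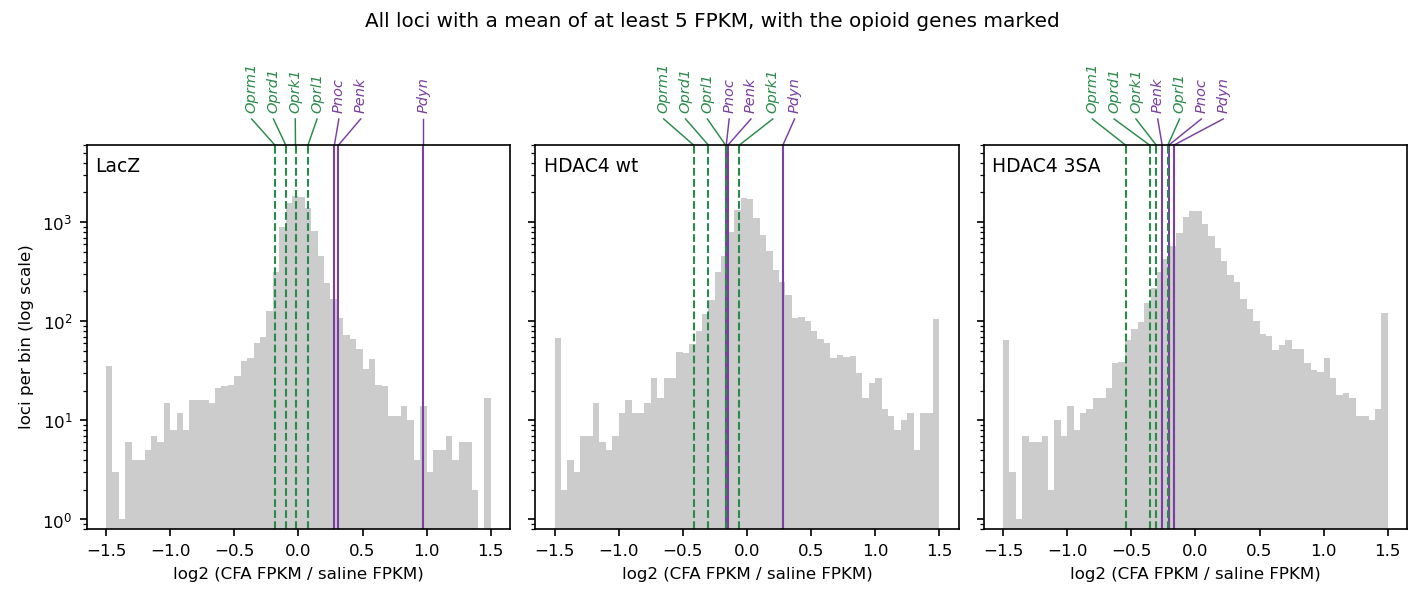
Number of loci (log scale) by log2 ratio of CFA over saline in bins, 1 panel per vector, for loci with a mean of at least 5 FPKM, with loci beyond the axis put in the end bins. Solid lines mark the peptide precursors and dashed lines the receptors: Pdyn stands apart at 0.98 in LacZ mice, and all 7 lines are left of 0 in HDAC4 3SA mice.

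Whether the CFA response depended on the vector was asked by the difference between log2 ratios. These comparisons share groups: the LacZ values enter both HDAC4 comparisons, and each HDAC4 vector enters 2. The HDAC4 3SA minus LacZ difference was -1.14 for Pdyn, -0.57 for Penk, -0.49 for Pnoc, -0.36 for Oprm1, -0.29 for Oprl1, -0.28 for Oprk1 and -0.26 for Oprd1. All 7 were lower, at a background of 50.3% of loci lower at any size, and Pdyn and Penk were past the mark, against 8.23% of loci downward and 17.4% in either direction. The HDAC4 wt minus LacZ difference was past the mark for Pdyn alone, at -0.69, against 8.72% of loci downward and 20.4% in either direction. The other members ranged from -0.46 (Penk) to -0.036 (Oprk1), so that all 7 were lower, at a background of 49.3% of loci. Between the 2 HDAC4 vectors no member was past the mark, against 20.9% of loci, all 7 were lower at a background of 49.3%, and the widest difference was again that of Pdyn, at -0.45. The precursors had larger differences from LacZ than the receptors: their medians were -0.57 against -0.29 for HDAC4 3SA and -0.46 against -0.22 for HDAC4 wt mice. The median of 3 dorsal horn neuron markers (Lbx1, Pax2 and Gbx1) was the Gbx1 value in each vector. Pax2 moved less (log2 0.10, -0.20 and -0.25 in LacZ, HDAC4 wt and HDAC4 3SA mice), and its subtraction alone was not tried. Relative to that median most of these differences turned, and 6 of 7 were above 0 in each comparison with LacZ. The medians were then 0.029 for the precursors and 0.31 for the receptors in HDAC4 3SA, and 0.0090 and 0.25 in HDAC4 wt mice. Pdyn kept its direction, at -0.54 and -0.22, and was then the 1 member past the mark for HDAC4 3SA, with 0 for HDAC4 wt. Between the 2 HDAC4 vectors, 5 members were above 0 and 2 below on this scale (median 0.020), with Pdyn at -0.32 and 0 members past the mark.

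The tissue differed between groups in ways that touch these values. Markers of dorsal horn neurons (Lbx1, Pax2 and Gbx1; Pax8 could not be matched between tables) had summed levels of 19.6 and 21.8 FPKM after saline and CFA in LacZ, 20.5 and 16.9 FPKM in HDAC4 wt, and 19.9 and 15.5 FPKM in HDAC4 3SA mice. Their median log2 ratios were 0.16, -0.31 and -0.44, which is the direction of Penk, Pnoc and Oprl1 in all 3 vectors. Pdyn in HDAC4 wt mice and Oprm1, Oprd1 and Oprk1 in LacZ mice had the opposite sign. Motor neuron markers (Chat, Slc5a7, Mnx1, Isl1 and Prph) moved the other way in the HDAC4 vectors, with sums of 38.2 and 48.5, 17.4 and 39.8, and 28.5 and 70.7 FPKM, and all 5 were higher after CFA in each vector. In bulk tissue, fewer cells of a type and less RNA per cell cannot be told apart. The part of the dissected tissue's makeup in the opioid values was not tested.

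Inhibitory neuron markers (Slc32a1, Gad1, Gad2 and Slc6a5) summed to 317 and 300 FPKM after saline and CFA in LacZ, 251 and 222 FPKM in HDAC4 wt, and 254 and 193 FPKM in HDAC4 3SA mice. Excitatory dorsal horn markers summed to 92.8 and 90.8, 77.4 and 65.0, and 78.3 and 57.4 FPKM, mostly from Slc17a6, while Lmx1b and Tlx3 were higher after CFA in LacZ mice (log2 0.15 and 0.37). The 6 general neuron markers summed to 2339 and 2298 FPKM in LacZ mice and to between 1508 and 1702 FPKM in the HDAC4 groups. That gap came mostly from Snap25 (saline values of 1227, 795 and 861 FPKM under LacZ, HDAC4 wt and HDAC4 3SA) and Nefl (494, 235 and 308 FPKM). Tubb3 (247, 172 and 197 FPKM) and Stmn2 (214, 154 and 178 FPKM) were also lower after saline under both HDAC4 forms. Rbfox3 (71.6, 68.0 and 73.7 FPKM) and Syt1 (86.2, 90.8 and 84.6 FPKM) had similar saline values. Microglial markers were at 53.3 and 53.8 FPKM in LacZ mice, and between 118 and 171 FPKM in the HDAC4 groups, so that the vectors differed in their microglia signal after saline too. Astrocyte markers summed to 711 and 720 FPKM in LacZ mice and to between 1162 and 1493 FPKM in the HDAC4 groups, mostly from Gfap. Aqp4 and Aldh1l1 were also higher in the HDAC4 groups, but Slc1a3 and S100b were lower. Slc1a3 was at 38.4 and 35.9 FPKM in LacZ mice and at 26.7 to 29.3 FPKM in the HDAC4 groups. S100b was at 130 and 132 FPKM against 104 to 115 FPKM. Endothelial markers lay between 54.2 and 75.7 FPKM. Markers of tissue outside the cord also moved: Schwann cell markers were at 1210 and 1742, 1203 and 1223, and 1574 and 1069 FPKM, and neutrophil markers at 10.03 and 106, 38.2 and 27.0, and 56.9 and 35.9 FPKM. Leptomeningeal fibroblast markers were at 116 and 156, 155 and 160, and 143 and 153 FPKM, with all 4 higher after CFA in LacZ mice. Skeletal muscle markers were at 14.4 and 31.6, 4.49 and 0.734, and 47.0 and 38.6 FPKM, the 2 matched red blood cell markers at 141 and 260, 187 and 203, and 347 and 394 FPKM, and ependymal markers at 13.7 and 4.48, 11.3 and 18.04, and 10.6 and 14.1 FPKM. Their part in the opioid values was not tested. Sensory ganglion markers could be matched for only 3 of 7 genes, with a sum between 1.21 and 10.3 FPKM that came mostly from Avil; Trpv1 was listed at 0 in the HDAC4 3SA saline group.

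Subtracting the median log2 ratio of the 3 matched dorsal horn markers in each table left Pdyn at 0.82 (LacZ), 0.59 (HDAC4 wt) and 0.28 (HDAC4 3SA), a reading added after the data were seen. The order of the vectors was the same as without the subtraction. Penk then stood at 0.15, 0.16 and 0.18 and Pnoc at 0.12, 0.15 and 0.24, so that on this scale the vectors lay close together for Penk, and Pnoc was highest in HDAC4 3SA mice. Oprm1 was at -0.34, -0.10 and -0.10, Oprd1 at -0.26, 0.011 and 0.086, Oprk1 at -0.18, 0.25 and 0.14, and Oprl1 at -0.083, 0.15 and 0.23. Relative to this median each receptor was lowest in LacZ mice, where the unadjusted log2 ratio was the highest of the 3. The subtracted median was the Gbx1 value in each vector (log2 0.16, -0.31 and -0.44), at a mean of 4.86 FPKM. Pax2, the most abundant of the 3 markers, moved less (0.10, -0.20 and -0.25), and Lbx1 was at 0.21, -0.37 and -0.46. These readings thus rest on 1 low-level gene, and subtraction of Pax2 or Lbx1 alone was not tried.

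**Figure D3:**
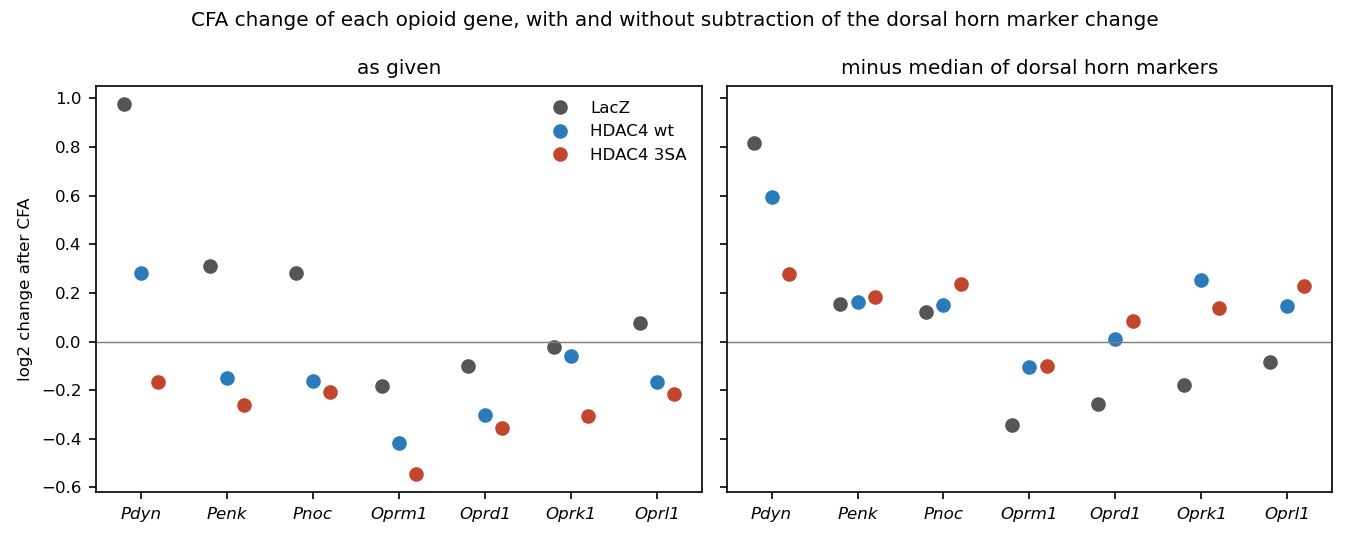
Log2 ratio of CFA over saline for each opioid gene (vertical axis) in LacZ, HDAC4 wt and HDAC4 3SA mice, as given (left) and after subtraction of the median of Lbx1, Pax2 and Gbx1 (right). That median is the Gbx1 value in each vector. Pdyn keeps the order LacZ, HDAC4 wt, HDAC4 3SA (0.82, 0.59 and 0.28 on the right), while the 3 vectors lie close together for Penk at 0.15 to 0.18.

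The other neuropeptides of the dorsal horn give a second frame. Of 10 in the list 9 were matched, and all 9 had a higher CFA value under LacZ (median log2 0.35), 2 were higher and 7 lower in HDAC4 wt mice (median -0.23), and 2 were higher and 7 lower in HDAC4 3SA mice (median -0.32). The shares over all loci were 50.2% higher in LacZ mice, and 47.6% and 48.2% lower in HDAC4 wt and HDAC4 3SA mice. In LacZ mice Sst (somatostatin) was at 86.8 and 108 FPKM and Tac2 (neurokinin B) at 64.7 and 82.4 FPKM, the most abundant of the list. Past the mark in LacZ mice, against 5.78% of loci upward, were Crh (corticotropin-releasing hormone), from 1.33 to 2.28 FPKM (log2 0.78), Gal (galanin), from 10.2 to 16.2 FPKM (log2 0.67), and Grp (gastrin-releasing peptide), from 12.3 to 17.7 FPKM (log2 0.53). In HDAC4 3SA mice Cck (cholecystokinin) went from 27.9 to 17.9 FPKM (log2 -0.64). None of the 9 had a higher log2 ratio than Pdyn in LacZ or HDAC4 wt mice, while 3 of them did in HDAC4 3SA mice. Penk and Pnoc lay within the range of these peptides in all 3 vectors.

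**Figure D4:**
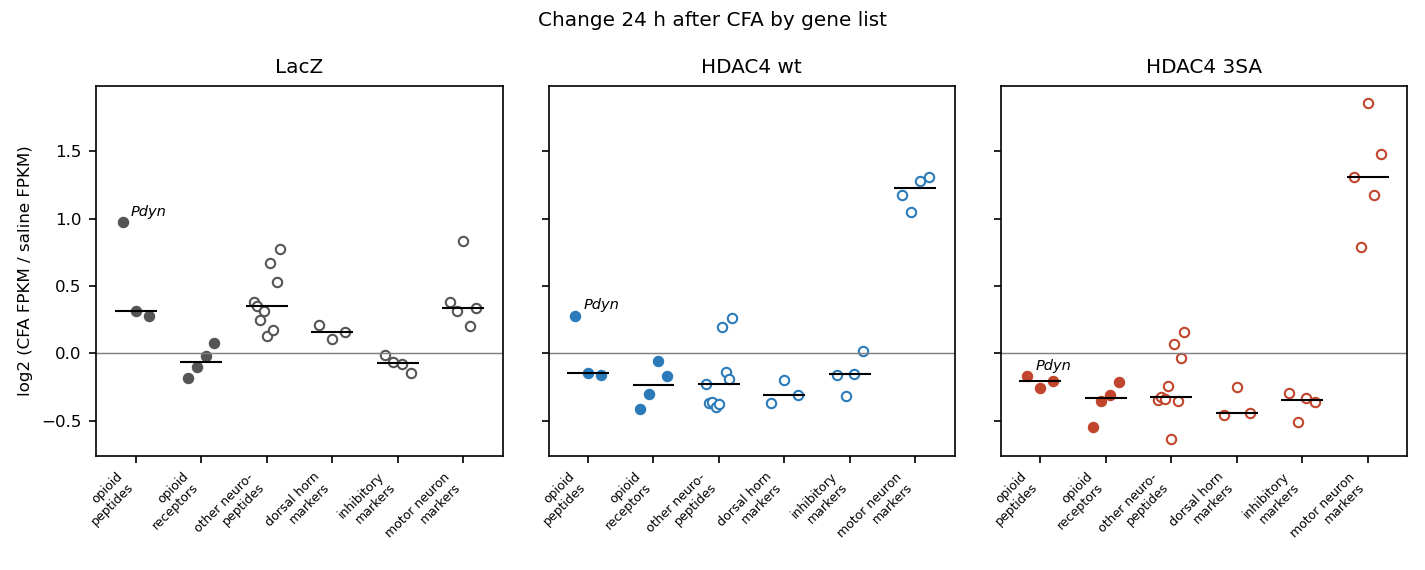
Log2 ratio of CFA over saline (vertical axis) of single genes grouped by list, 1 panel per vector, for genes averaging 0.5 FPKM or more in that table, with horizontal bars at list medians. Pdyn is the highest peptide at 0.98 in LacZ mice, and motor neuron markers have medians of 0.34, 1.23 and 1.31 in LacZ, HDAC4 wt and HDAC4 3SA mice.

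The genes that make and remove opioid peptides were read next, against shares of all loci past the mark of 10.7% (LacZ), 19.4% (HDAC4 wt) and 18.7% (HDAC4 3SA). Of the 7 processing genes, Cpe (carboxypeptidase E) was the most abundant at 784 and 761 FPKM in LacZ mice, followed by Pcsk1n, an inhibitor of prohormone convertase 1, at 268 and 318 FPKM. None of the 7 was past the mark in LacZ or HDAC4 wt mice. In HDAC4 3SA mice the convertase Pcsk1 was lower after CFA, at 8.77 and 5.62 FPKM (log2 -0.64), and the protease Ctsl was higher, at 59.7 and 90.1 FPKM (log2 0.59). Of the 6 peptide-degrading genes 5 were matched. Npepps and Ace were the most abundant, Npepps at 51.2 and 48.2 FPKM in LacZ mice with log2 ratios from -0.087 to 0.0099 over the vectors. The aminopeptidase Anpep was past the mark in each vector (log2 0.56, 0.62 and 1.53), from 0.993 to 1.46, 4.88 to 7.48 and 3.13 to 9.07 FPKM, and neprilysin (Mme) only in HDAC4 3SA mice, from 7.17 to 4.87 FPKM (log2 -0.56). In HDAC4 3SA mice, where Pcsk1 and Mme were lower and Ctsl was higher, dorsal horn markers had a median of -0.44 and microglial markers of 0.56. Ctsl was at 33.0 and 34.8 FPKM in LacZ mice. The part of the tissue's makeup in these values was not tested.

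Downstream of the receptors, and against the same shares, the 5 inhibitory G protein alpha subunits stayed inside the mark in each vector, with Gnao1 at 114 and 113 FPKM and Gnai2 at 101 and 110 FPKM in LacZ mice. Of the 6 effector channels 5 had a sufficient level. These 5, the GIRK potassium channels Kcnj3, Kcnj6 and Kcnj9 and the presynaptic calcium channels Cacna1a and Cacna1b, were all lower after CFA under both HDAC4 forms (medians -0.17 for HDAC4 wt and -0.37 for HDAC4 3SA), against 0.0056 in LacZ mice. Over all loci, 47.6% and 48.2% were lower in these vectors, and the dorsal horn markers had medians of -0.31 and -0.44, further below 0 than the medians of the channels. Past the mark, against 6.64% of loci downward, were Kcnj3, from 16.4 to 11.5 FPKM (log2 -0.51), and Kcnj6, from 6.50 to 4.53 FPKM (log2 -0.52), both in HDAC4 3SA mice. None of the 13 regulators of receptor signalling (kinases, arrestins and RGS proteins) was past the mark in any vector, among them the abundant Adrbk1 at 75.1 and 78.0 FPKM and Rgs9 at 110 and 153 FPKM in LacZ mice (log2 0.48); the shares over all loci were 10.7%, 19.4% and 18.7%.

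Of 9 transcription factors that have been linked to Pdyn or Penk, 8 were matched, and 1 was past the mark, near the 5.78% of loci upward: Fosb in LacZ mice, from 0.883 to 1.59 FPKM (log2 0.85). It was 1.24 and 1.74 FPKM in HDAC4 wt mice (log2 0.50) and 1.23 and 1.63 FPKM in HDAC4 3SA mice (log2 0.41). Kcnip3, which encodes DREAM, a repressor known to bind the Pdyn gene, was at 30.3 and 30.3, 31.1 and 30.5, and 30.5 and 29.0 FPKM, and Nr3c1, the glucocorticoid receptor, at 19.5 and 19.2 FPKM in LacZ mice. Pdyn and these factors were set side by side only.

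The Pdyn promoters were searched in RefSeq sequence (GRCm38.p6), 250 bases before to 50 after the start site, because Pdyn carried the largest difference. Promoters were on hand for 4 of the 7 members and not for Penk, Pnoc or Oprk1. Motifs were read on both strands: the cyclic AMP element TGACGTCA, in 1.79% of 32851 promoters, the AP-1 site TGANTCA, in 7.81%, the shorter TGACG, in 20.8% and contained in the first, and TGACAAACA, known as a noncanonical AP-1 site of prodynorphin, in 0.335%. The last occurred once, 166 bases before 1 of the 2 Pdyn start sites, at chr2:129700096-129700104 on the minus strand, and not at the other. The window chr2:129700085-129700114 is shown with the match in capitals:
Pdyn promoter window: gcattgaaagTGACAAACAgcgctacacca

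None of the other 3 motifs was found in the promoters of the 4 members, and a match of letters is not evidence of binding.

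The loci most like each precursor over the 6 group values were found by the Pearson correlation of log2 FPKM among 10195 single-gene loci with a mean of at least 5 FPKM. Given as a description of 6 values from 3 tables, with no test, these were Hnrnpa0 (r = 0.990), RP24-235B15.7 (0.986) and Rbp4 (0.977) for Pdyn. Rbp4 (retinol binding protein 4) had the same shape at a lower level: 5.68 and 11.2 FPKM in LacZ, 10.2 and 10.6 FPKM in HDAC4 wt, and 6.66 and 6.78 FPKM in HDAC4 3SA mice. Hnrnpa0, in contrast, spanned only 56.4 to 62.6 FPKM, so its likeness is one of shape and not of size. For Penk these were Fjx1, Gal3st3 and Trak2 (r from 0.983 to 0.989), and for Pnoc Col9a2, Yrdc and Gm42836 (0.975 to 0.976). A correlation above 0.9 was found for 23 loci with Pdyn, 77 with Penk and 39 with Pnoc.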

How the data were processed

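Dorsal spinal tissue of 18 mice in 6 groups was analysed. The authors made strand-specific poly-A libraries, mapped single-end reads to mm10/GRCm38 with TopHat and Bowtie, and used Cufflinks and Cuffdiff with Ensembl annotation, although the tables carry RefSeq transcript identifiers. They deposited 1 table per vector, whose FPKM columns are per group, not per mouse. The deposited tables also hold Cuffdiff's fold change, test statistic, p, q and status columns, which were not used. Since no value per mouse was on hand, the tests foreseen for such values were not run. Another 386 loci lay at different places or under different names between tables and were left out of lists, which is why Jun and Pax8 have no value. Log2 ratios were computed without added FPKM (Python 3.11.15, numpy 2.4.6, pandas 2.3.3), and percentages of loci refer to those averaging 0.5 FPKM or more over the 2 groups of a table. Start positions, counted from 0 in the tables, were converted to 1-based. The step that counts loci past the mark was run on saline values multiplied by known factors. No spread between mice was added, so that run checks the arithmetic only and not how many loci pass by chance.

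Named were all members, the 2 most abundant genes of each pathway list and those of at least 0.5 FPKM past the mark in any vector, and the 3 loci most like each precursor. The members and lists were chosen with earlier results of these data known. Alternatives varied the mark, added FPKM, the centring, the level minimum and the choice of row. Among the items not reported here are 1 pathway list, 1 marker list and 1 sequence.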

Additional observations from a re-analysis of the deposited data

How the results depend on the processing

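The number of opioid genes past the mark in LacZ, HDAC4 wt and HDAC4 3SA mice was 1, 0 and 1. A mark of 0.25 gave 3, 3 and 4, against 24.2%, 37.5% and 39.1% of all loci, and a mark of 1 gave 0 in LacZ and 0 in HDAC4 3SA mice. The HDAC4 3SA count was also 0 with 1 FPKM added, with all rows of a name summed and relative to the dorsal horn markers, which gave 1 in HDAC4 wt mice. Relative to these markers, a reading chosen once the data had been seen, the members' median log2 ratios were -0.083, 0.15 and 0.18 in place of 0.07, -0.16 and -0.26. This reading rests on Gbx1, the median marker in each vector. The share of all loci past the mark was 20.3% (LacZ) and 30.3% (HDAC4 wt) with a minimum of 0.1 FPKM, and 4.64%, 9.31% and 10.7% in the 3 vectors with a minimum of 5 FPKM. The members whose response differed numbered 3 (HDAC4 wt minus LacZ), 7 (HDAC4 3SA minus LacZ) and 1 (HDAC4 3SA minus HDAC4 wt) at 0.25, against 37.2%, 36.4% and 37% of all loci, and 0 and 1 against LacZ relative to the dorsal horn markers. Of 105 single-gene settings 77 moved a log2 ratio by less than 0.1 and 28 by more, and 13 changed the sign, 12 of them relative to the dorsal horn markers, though neither of the 2 values past the mark did. No paired analysis was possible because the tables hold 1 value per group, and for the same reason no replicate was left out. The tables do not hold the depth behind each value, so no counting error can be given, and low-level receptors are the least certain.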

Other observations

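Pnoc, Oprm1 and Oprd1 each had a second locus with the same coordinates as the main one. Locus numbers ran through the plus strand and then the minus strand of each chromosome for 98.6% of 13252 loci with an annotated strand, and the 3 second loci carried numbers from the block of the opposite strand. The tables give no strand, so that these rows are read as antisense is an inference from numbering and was not tested. The second Oprm1 locus was at 0.450 to 0.908 times the main one, the Oprd1 one at 0.352 to 0.679 times and the Pnoc one at 0.0443 to 0.0793 times. In LacZ mice the second Oprm1 locus gave 2.66 (saline) and 2.26 FPKM (CFA), and the second Oprd1 locus 1.65 and 1.51 FPKM. In HDAC4 wt mice both were higher after CFA, at 1.15 and 1.48 FPKM (log2 0.36) for Oprm1 and 0.616 and 0.965 FPKM (log2 0.65) for Oprd1, while the main loci of both genes were lower (log2 -0.42 and -0.30). In HDAC4 3SA mice they were lower after CFA, at 1.09 and 0.937 FPKM (log2 -0.21) for Oprm1 and 0.896 and 0.732 FPKM (log2 -0.29) for Oprd1.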
